A study of Arabidopsis thaliana with 2 samples.

Results

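Transcripts of cytosolic ribosomal protein genes were measured in Arabidopsis thaliana hypocotyls, and 60 loci were listed for the 60S and 40S subunits of the ribosome in the cytosol, 40 for the large subunit and 20 for the small one. The list gives loci of 26 proteins. A gene counted as measured where the platform annotation gave a probe set to that locus and to no other gene, and 38 of the 60 loci met this rule, out of 13286 loci in the whole data set that had such a probe set. The measured genes were 27 of the large subunit, for 13 proteins, and 11 of the small subunit, for 6 proteins. Of the 22 remaining loci, 6 were covered by 4 probe sets that the annotation gives to several genes, and 16 are not analysed here. Among the 60 listed loci, no gene of the proteins L3, L5, L8, L10, SA, S5 or S6 had a single-gene probe set. The annotation gives most of these genes by locus alone, so the protein of each gene was assigned from the general nomenclature of Arabidopsis ribosomal proteins and not from the data.

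Each cytosolic ribosome is built from ribosomal RNA and 1 copy of most ribosomal proteins. The small subunit binds the messenger RNA and decodes it, and the large subunit joins amino acids and passes the growing chain through an exit tunnel. In plants nearly every ribosomal protein is encoded by a small family of genes, its paralogues, which code for closely similar proteins. Growing tissue needs many new ribosomes, and ribosomal protein transcripts are known to be abundant there. The hypocotyl, the stem below the seed leaves, thickens with age through a cambium that forms xylem, whose walls become lignified.

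There were 2 samples, called sample 2 and sample 1 here, and the labels describe both in the same way, as hypocotyls of ecotype Col at growth stage 6.0. Growth was in compost with vermiculite at 22 °C, in days of 8 h light followed by 16 h dark, and the product Intercept was given with the first watering. RNA of each sample went to its own Affymetrix ATH1 array with 22746 plant probe sets, so there was 1 group, no contrast between conditions and no test. No label tells if separate plants were used, and what differs between the samples may be technical. Values are scaled signals in intensity units, and the log2 ratio is that of sample 2 over sample 1, so a negative ratio means a lower signal in sample 2. A given amount of RNA lights up some probes more than others, so signals of different genes are not set against each other, and the number of arrays limits the precision. In a whole organ, fewer cells of a type and less RNA per cell cannot be told apart. Among marker genes, 3 of 3 measured secondary wall xylan genes had signals above 50 on both arrays. So did 3 of 4 measured cambium and phloem genes and the 2 measured photosynthesis genes. The 2 measured root hair genes were below 50 but above the detection limit, a lower bar set by control probe sets. The measured anther gene was below that detection limit on both arrays.

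All 38 measured genes were detected. Signals ran between 171 and 3225, and each was above 50 on both arrays, as were 45.1% of all plant probe sets. A weaker limit, the highest signal of the Bacillus control probe sets (12.6 in sample 2 and 13.1 in sample 1), was passed by 70% of all plant probe sets, and the weakest, that of the TrpnX controls alone (3.3 in sample 2 and 2.5 in sample 1), by 85.2%. The standard deviation between the samples was between 0.424 and 434 units, with a median of 43.5. A mean signal below 200 was found for 1 gene, AT2G20450 of the protein L14.

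**Figure D1:**
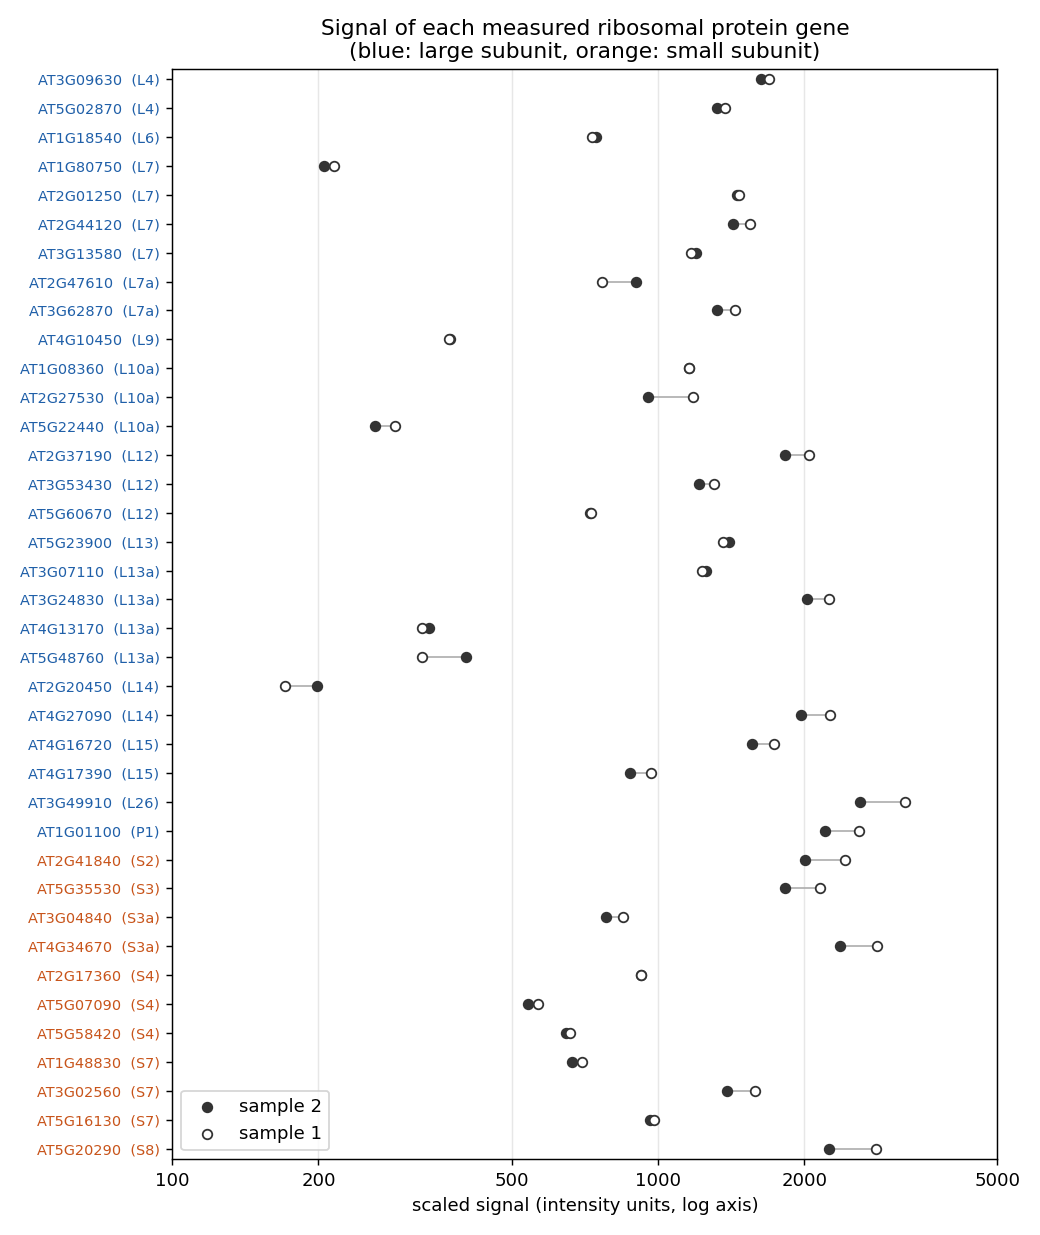
Scaled signal (log axis) of the 38 measured ribosomal protein genes, 1 row per gene with its protein in brackets, filled points for sample 2 and open points for sample 1. Filled points lie left of open points for the 7 genes with mean signals of 2000 or more, and every signal lies above 170.

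Protein L4 reaches into the exit tunnel, and its 2 genes behaved alike. AT3G09630 had 1634 in sample 2 and 1691 in sample 1, and AT5G02870 had 1324 and 1373, with log2 ratios of -0.050 and -0.052. Protein L6 was measured through 1 gene, AT1G18540, with 746 in sample 2 and 731 in sample 1 (log2 ratio 0.029). Both L4 differences are small beside the spread of the arrays, since the log2 ratios of all plant probe sets with mean signals of 1000 to 2000 had a standard deviation of 0.12.

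All 4 listed genes of protein L7 were measured. AT1G80750 had 206 in sample 2 and 215 in sample 1. AT2G01250 had 1453 and 1471, and AT2G44120 had 1424.5 and 1545. AT3G13580 went the other way, with 1197 in sample 2 and 1172 in sample 1, so 3 of the 4 were lower in sample 2, at log2 ratios from -0.12 to 0.031. The genes of L7a, a different protein despite its name, lay on opposite sides of 0. AT2G47610 had 901 in sample 2 and 767 in sample 1 (log2 ratio 0.23). AT3G62870 had 1326 and 1442, a log2 ratio of -0.12. Protein L9 was measured through AT4G10450, whose signals hardly differed, 373 in sample 2 and 372 in sample 1.

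The stalks of the large subunit are mobile arms on either side of the site where transfer RNAs and elongation factors bind. P1 is an acidic protein of the stalk that recruits elongation factors, and its gene AT1G01100 had 2206 in sample 2 and 2589 in sample 1 (log2 ratio -0.23). L12 sits at the base of that stalk, and its genes AT2G37190, AT3G53430 and AT5G60670 had 1829, 1213 and 725 in sample 2, against 2049, 1303 and 727 in sample 1. The log2 ratios of the 3 L12 genes were -0.16, -0.10 and -0.0034. L10a forms the opposite arm, near the exit site of transfer RNA. PGY1 (AT2G27530), one of the PIGGYBACK genes known from mutants with altered leaf polarity, had 955 in sample 2 and 1180.4 in sample 1 (log2 ratio -0.31). Its paralogue AT1G08360 showed hardly any difference, with 1157 and 1161, and AT5G22440 had 261 and 287, a log2 ratio of -0.13. PGY1 was thus 1 of the 4 genes with a signal at least 1.2-fold lower in sample 2.

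The other large subunit proteins measured were L13, L13a, L14, L15 and L26. L26 lies by the outer end of the exit tunnel, and its gene AT3G49910 had 2611 in sample 2 and 3225 in sample 1 (log2 ratio -0.30). For L13a, AT3G24830 had 2031 in sample 2 and 2254 in sample 1. The 3 other L13a genes had higher signals in sample 2. AT5G48760 had 403 in sample 2 and 327 in sample 1, and its log2 ratio of 0.30 was the highest of the 38. AT4G13170 had 339 and 327, and AT3G07110 had 1255 and 1231. The L14 genes also split. AT4G27090 had 1967 in sample 2 and 2261 in sample 1 (log2 ratio -0.20), and AT2G20450 had 199 and 171, a log2 ratio of 0.22. For L15 the genes matched. AT4G16720 had 1562 in sample 2 and 1729.9 in sample 1, and AT4G17390 had 877 and 969, with log2 ratios of -0.15 and -0.14. The L13 gene AT5G23900 had 1399.7 in sample 2 and 1362 in sample 1.

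All 11 measured genes of the small subunit had lower signals in sample 2, 2 of them by 1.2-fold or more, as were 13.5% of all plant probe sets. At mean signals of 1000 or more, that was 2 of 5 small subunit genes, against 16% of the 407 plant probe sets. All 11 had mean signals above 500, where most plant probe sets were lower in sample 2 as well. Between 500 and 1000, 6 of 6 small subunit genes were lower, against 64% of all plant probe sets. Between 1000 and 2000 it was 2 of 2 against 86.0%, and at 2000 or more 3 of 3 against 100%. S3 guards the channel through which messenger RNA enters, and its gene AT5G35530 had 1827 in sample 2 and 2155 in sample 1 (log2 ratio -0.24). S2 lies close to S3 and affects decoding accuracy in yeast. Its gene AT2G41840 had 2005 in sample 2 and 2426 in sample 1 (log2 ratio -0.28). S8, a protein of the subunit's body, was measured through AT5G20290, with 2254 in sample 2 and 2813 in sample 1, and its log2 ratio of -0.32 was the lowest of the 38. S3a lies near the exit of the messenger RNA channel. Of its genes, AT4G34670 had 2374 and 2828, a log2 ratio of -0.25, and AT3G04840 had 782 and 848, a log2 ratio of -0.12.

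The remaining small subunit proteins, S4 and S7, were measured through 3 genes each. The 3 genes of S4, AT2G17360, AT5G07090 and AT5G58420, had 921.6, 539.9 and 648 in sample 2, against 922.2, 566 and 658 in sample 1, so each pair of values was close. The log2 ratio of AT2G17360, -0.00094, was the closest to 0 of all 38. S7 takes part in small subunit assembly in yeast and human cells. AT3G02560 of S7 had 1384 in sample 2 and 1588 in sample 1 (log2 ratio -0.20). Its paralogues AT1G48830 and AT5G16130 had 666 and 961 in sample 2, against 696 and 982 in sample 1, with log2 ratios of -0.064 and -0.031.

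Over the 38 genes, 29 had lower signals in sample 2 and 9 had higher ones, where 48.2% of all plant probe sets above the limit were lower and 51.8% higher. After quantile normalization 15 of the 38 were lower, and after loess normalization 18. The median log2 ratio was -0.066, a difference of -4.47% in signal, against 0.011 for all plant probe sets. The range was from -0.32 to 0.30. None of the 38 differed by 1.5-fold, as 10.1% of all plant probe sets did. By 1.2-fold 5 differed, against 32.5% of all, and these were AT3G49910, AT5G20290, AT2G41840 and PGY1, lower in sample 2 (13.5% of all were), and AT5G48760, higher in sample 2 (19% of all were). Those shares include many dim probe sets, whose ratios scatter more. Among genes with mean signals of 1000 or more, 4 of 22 were 1.2-fold lower in sample 2, against 16% of the 407 plant probe sets in that range. The loci AT3G49910, AT4G34670, AT5G20290 and AT1G01100 were known from earlier results to be among the bright ones on these arrays. Without these 4, 25 of 34 genes were lower in sample 2 and the median was -0.058.

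The difference between the samples followed the signal. Bright probe sets as a whole were lower in sample 2, and the ribosomal protein genes lay close to the medians of all probe sets of like signal. The plant probe sets of each range include the ribosomal protein genes themselves, so the compared sets are not independent. Of the 7 genes with mean signals of 2000 or more, all were lower, with a median of -0.25, as were 100% of the 65 plant probe sets in that range, which also had a median of -0.25. The 7 include the loci known from earlier results to be bright. Between 1000 and 2000, 12 of 15 were lower, with a median of -0.10 against -0.13 for all 342. From 500 to 1000, 8 of 10 were lower, with a median of -0.026 against -0.046 for all 775. Of the 5 genes between 200 and 500, 2 were lower, and their median of 0.0039 stood beside -0.0022 for all. At 1000 or more, 19 of 22 genes were lower, and 88.2% of the 407 plant probe sets were. Set against the median of its own signal range, the median gene was higher by 0.018, with 15 genes below and 23 above. The count of genes lower in sample 2 therefore lay near the background of equally bright probe sets. Across the 38 genes, Pearson's r between log2 mean signal and log2 ratio was -0.64 and Spearman's rho -0.68. The points share the same 2 arrays, so these describe the arrays and are no test.

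**Figure D2:**
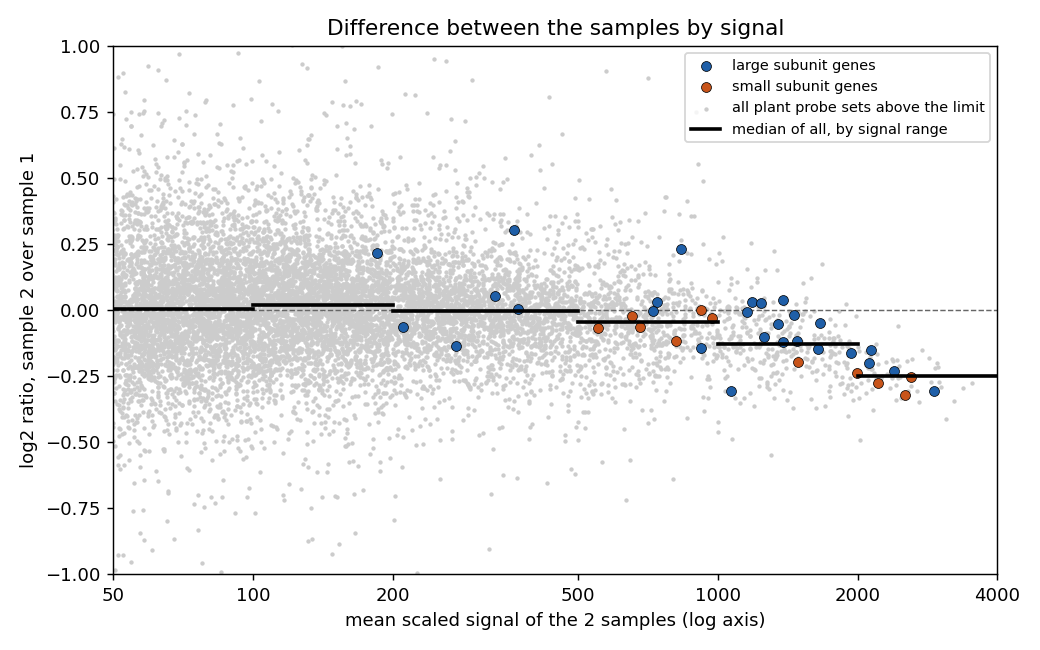
Log2 ratio of sample 2 over sample 1 against mean scaled signal (log axis) for the 27 large subunit genes, the 11 small subunit genes and all plant probe sets above the limit, with the median of all in each signal range as black bars. Probe sets with mean signals under 50, or beyond a log2 ratio of 1 either way, lie outside the axes. The bars step down from 0.019 at signals of 100 to 200 to -0.25 at 2000 or more, and the ribosomal protein genes scatter around them.

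The control probe set for 25S ribosomal RNA had 2171 in sample 2 and 2618 in sample 1 (log2 ratio -0.27). That for 5S ribosomal RNA was dim, with 29.1 in sample 2 and 38.8 in sample 1 (log2 ratio -0.42). All plant probe sets with mean signals of 20 to 50 had a median of 0.029. Of the 16 control probe sets for actin, ubiquitin and GAPDH transcripts of Arabidopsis, 11 were lower in sample 2 and 5 higher. Their median log2 ratio was -0.11, and 48.2% of all plant probe sets were lower. Of the 12 such controls with mean signals of 1000 or more, 10 were lower, as were 88.2% of the 407 plant probe sets in that range. The 18 hybridisation control probe sets, both dim and bright, which detect bacterial and phage transcripts added to the labelled RNA, were all lower in sample 2, at log2 ratios from -1.63 to -0.44. The average background was higher on that array, 95.57 in sample 2 and 79.94 in sample 1 per the labels. The ratio of 3' to 5' signal for actin was 6.55 in sample 2 and 8.45 in sample 1 in one series of control probe sets, and 1.29 in sample 2 and 1.34 in sample 1 in the other. For ubiquitin the ratios in the 2 series were 1.85 and 1.41 in sample 2, against 1.82 and 1.42 in sample 1. Those for GAPDH were 1.14 and 1.32 in sample 2, against 1.16 and 1.21 in sample 1. All 3 measured xylan genes of xylem were higher in sample 2, at log2 ratios from 0.19 to 0.33. Of the 4 measured cambium and phloem genes 3 were lower in sample 2, and the 4 ran from -0.16 to 0.33. Among all plant probe sets above the limit, 51.8% were higher in sample 2 and 48.2% lower. The part of these differences in the values of the ribosomal protein genes was not tested.

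Large and small subunit genes were compared by their medians. The 27 large subunit genes had a median log2 ratio of -0.052, with 18 lower in sample 2, and the 11 small subunit genes had one of -0.12, with all 11 lower, a difference of 0.064 for large minus small. After taking off the median of each gene's signal range, the large subunit genes stood at 0.050 and the small subunit genes at -0.022, which left a difference of 0.071. Of the 27 large subunit genes, 20 lay above the median of their signal range, and of the 11 small subunit genes, 3 did. At mean signals of 2000 or more the medians were -0.22 for 4 large subunit genes and -0.28 for 3 small subunit genes. Between 1000 and 2000 they were -0.052 for 13 large subunit genes and -0.22 for 2 small subunit genes. Those 2 had mean signals of 1991, near the top of the range, and 1486. From 500 to 1000 the medians were 0.013 for 4 large and -0.047 for 6 small subunit genes. Without the 4 loci known to be bright, the difference was 0.018, and with 1 value for each protein it was 0.17, so its size rested on which genes were counted.

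How the arrays were brought to 1 scale set the sign of the large subunit median. Scaling to the same median left both subunits lower in sample 2, at -0.076 for the large and -0.14 for the small. Quantile normalization gave 0.055 and -0.019, and loess normalization on the signal gave 0.018 and -0.044. The median of the 38 genes was 0.017 after quantile and 0.0091 after loess normalization, with 15 and 18 genes lower in sample 2. Large minus small was 0.074 after quantile and 0.063 after loess normalization, while scaling to the same median cannot alter it.

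**Figure D3:**
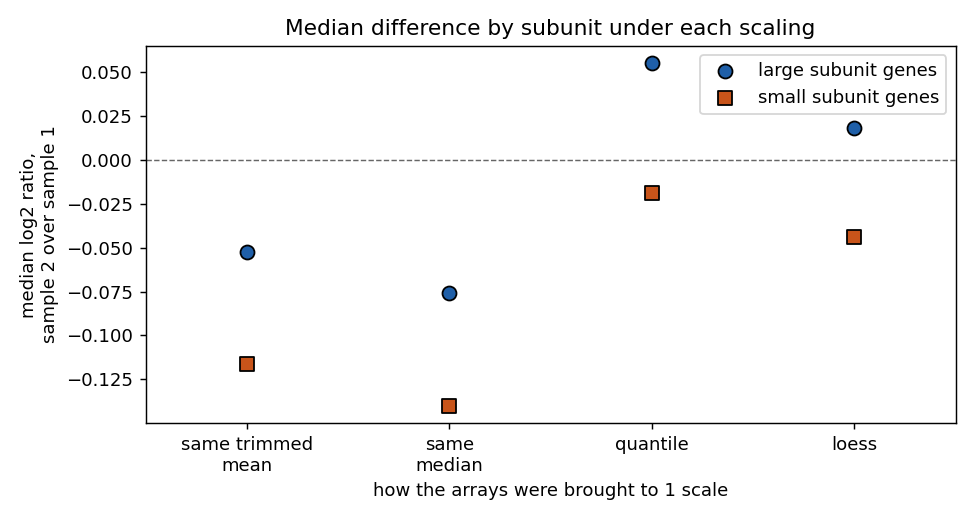
Median log2 ratio of sample 2 over sample 1 for the large subunit genes (n = 27) and the small subunit genes (n = 11) under 4 ways of bringing the arrays to 1 scale. The trimmed mean and the median shift all genes equally, so they share 1 difference by construction, and the large subunit lies above 0 after quantile (0.055) and loess (0.018) normalization.

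Paralogues of the same protein could be compared for 11 proteins with 2 to 4 measured genes, 30 genes in all. Every one of these genes was above 50 on both arrays, so no protein had a gene that was detected beside one that was not. For 7 of the 11 proteins, all the measured genes were lower in sample 2: L4, L10a, L12, L15, S3a, S4 and S7. Of the 38 genes 29 were lower to begin with. Counted in either direction, the genes of 7 proteins shared a direction after quantile normalization, and those of 4 proteins after loess normalization. These need not be the proteins just named, nor lower in sample 2. For L7, L7a, L13a and L14 the genes went different ways. The log2 ratios of 2 genes of the same protein differed by a median of 0.13 over 29 pairs, and those of genes of different proteins by a median of 0.14 over 674 pairs. Pairs share genes and both sets come from the same 2 arrays, so this is a description. The widest gap was 0.45, between AT5G48760 and AT3G24830 of L13a, and the narrowest were within L4 and L15.

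**Figure D4:**
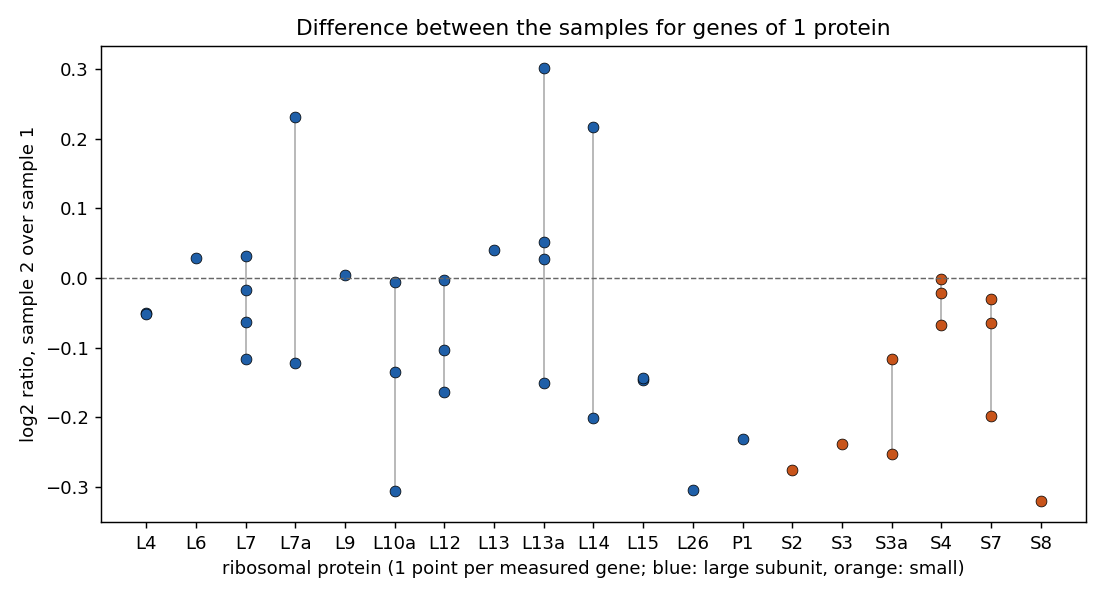
Log2 ratio of sample 2 over sample 1 for each measured gene, grouped by protein, with a line joining genes of the same protein. The 2 genes of L4 and those of L15 nearly coincide, while those of L7a, L13a and L14 lie on both sides of 0, between -0.20 and 0.30.

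The remaining cytosolic ribosomal protein genes were counted from a longer list of 168 loci, of which 93 had a single-gene probe set. Of these, 74 were above 50 on both arrays, as were 45.1% of all plant probe sets. Over 90 above the lowest limit the median log2 ratio was -0.036. Of the 90, 60 were lower in sample 2, where 48.2% of all plant probe sets were. That median was 0.027 after quantile and 0.025 after loess normalization. Among them, 19 of 21 with mean signals between 1000 and 2000 were lower, with a median of -0.093 against -0.13 for all plant probe sets, and 5 of 5 at 2000 or more, with -0.21 against -0.25. Here the 54 large subunit genes had a median of -0.054 and the 36 small subunit genes one of -0.013, so large minus small was -0.042, opposite in sign to that of the 38 genes.

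With the longer list, paralogues could differ in detection, and how many did depended on the limit. Of the 45 proteins with 2 or more measured genes over both lists, 35 had each gene above 50 on both arrays and 10 had at least 1 gene above and 1 not above it. At the Bacillus limit 4 proteins were split in this way, and at the TrpnX limit 2, L37a and P2. S8 and L13 were split at 50, and their dimmer genes passed both weaker limits. AT5G20290 of S8 has a paralogue, AT5G59240, with 26 in sample 2 and 28.4 in sample 1, and AT5G23900 of L13 has AT3G48960, with 22.9 and 17.1. AT1G01100 of P1 has AT4G00810, with 386 and 406, and AT5G47700, with 938 and 1057, and AT3G49910 of L26 has AT5G67510, with 331 and 325. AT2G41840 of S2, lower in sample 2, has AT3G57490, which was higher there, with 141 and 111 (log2 ratio 0.33). A dim probe set says that little signal was read there, and not that the gene is silent.

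Genes that work with the ribosome were thinly covered. The elongation factor gene AT5G19510 had 2274 in sample 2 and 2592 in sample 1, and AT5G12110 had 100.9 and 99.9. Of 22 listed ribosome assembly genes 7 were measured, with a median log2 ratio of 0.017 and 3 lower in sample 2. AT3G05060, AT3G03920 and AT5G08180, whose proteins belong to the small nucleolar particles that modify ribosomal RNA, had log2 ratios of 0.080, 0.16 and 0.018. The TOR kinase stimulates translation, and the measured genes of that list, RAPTOR1, RAPTOR2 and AT5G63190, had log2 ratios of 0.16, 0.21 and -0.044. Nuclear genes for plastid ribosomal proteins, which serve a different ribosome, had a median of 0.085 over 6 genes, 2 of them lower in sample 2. AT4G01310, AT2G43030 and AT1G29070 of this list had 110, 246 and 175 in sample 2, against 101, 233 and 186 in sample 1. None of these listed genes differed by 1.5-fold, as 10.1% of all plant probe sets did. All but AT5G19510 had mean signals under 1000, the range in which 47.4% of plant probe sets were lower in sample 2.

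**Figure D5:**
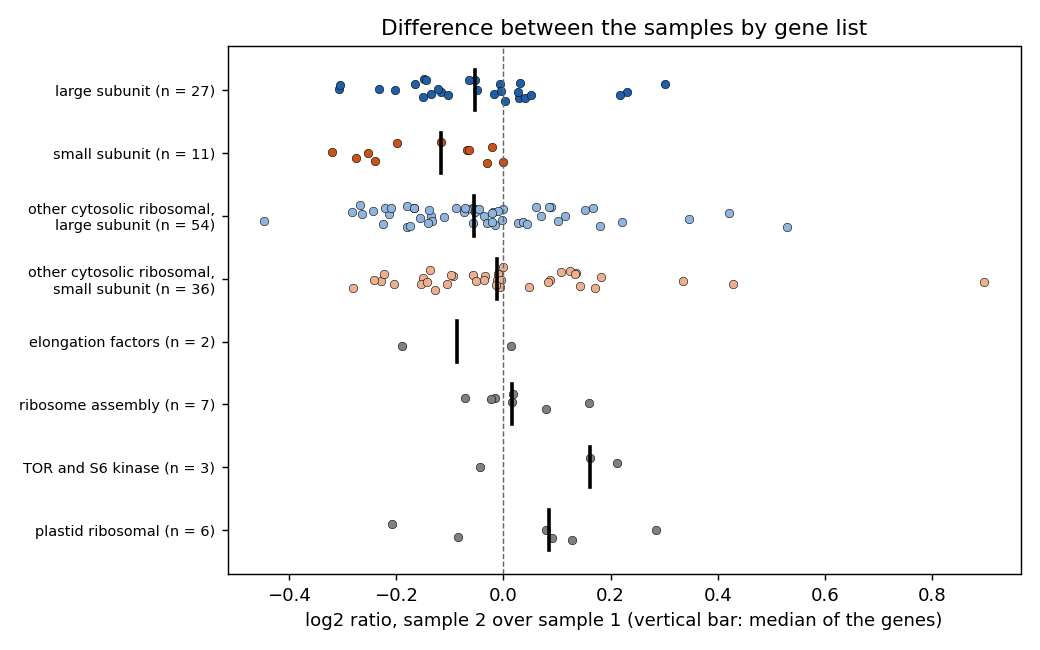
Log2 ratio of sample 2 over sample 1 for each gene above the detection limit, by gene list, with the list's median as a vertical bar and its number of genes in brackets. The medians lie between -0.12 for the small subunit genes and 0.16 for the TOR and S6 kinase list, and the point at 0.90 is AT5G09490 of S15, whose signals were 5.4 in sample 2 and 2.9 in sample 1.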

How the data were processed

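RNA from hypocotyls was read on 1 ATH1 array for each sample, per the labels. The authors deposited intensities on a linear scale, to 1 decimal, for 22810 probe sets, 64 of them controls. The software behind them was not given in the sources used here. Both arrays were rescaled to the same mean (100) after trimming 2% at each end, by factors very close to 1. Detection needed a signal above the highest TrpnX control on both arrays, and log2 ratios (nothing added) were taken over probe sets that passed. Names came from the platform annotation (13513 probe sets with 1 gene, 503 with several, 8730 plant probe sets unnamed here), and 13436 of those with 1 gene were matched to RefSeq (TAIR10.1). No build is named for the values, so no coordinates are given. Members and lists were chosen with earlier results of these data known, and every measured member may be named; from each other list, the first 3 measured genes and any past 1.5-fold. Exceptions, singled out after their values were seen, are paralogues of the listed genes. The trimmed-mean scaling and the log2 ratios were tested on simulated data that held no difference following the signal. Other steps were not tested in this way. Computation used pandas 2.3.3 and numpy 2.4.6 in Python 3.11.15, loess from statsmodels 0.14.6, correlations from scipy 1.17.1, and figures from matplotlib 3.10.9. Alternatives were other scalings, detection limits and fold thresholds, adding 16 before log2, and leaving out each sample.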

Additional observations from a re-analysis of the deposited data

Results flagged for a closer look

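Signal was also read by 4 probe sets that the annotation gives to several genes, which no comparison above uses, and no control samples exist to set them against. The probe set for AT1G74050 and AT1G74060, both of protein L6, had 1775 in sample 2 and 1575 in sample 1 (log2 ratio 0.17). That for AT1G33140, known as PGY2, and AT1G33120, both of L9, had 1266 in sample 2 and 1412.5 in sample 1 (log2 ratio -0.16). The probe set for AT2G31610 and AT3G53870, both of S3, had 928 in sample 2 and 939.7 in sample 1. A set of 4 loci that includes AT1G58380 of S2 shared a probe set with 1824 in sample 2 and 1827 in sample 1. All these signals were far above the Bacillus controls, and they cannot be divided among the genes.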

How the results depend on the processing

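Quantile normalization turned the median log2 ratio positive for the 38 genes (0.017) and the large subunit (0.055). The median of the other cytosolic ribosomal protein genes (0.027) turned positive too. So did that of the elongation factors (0.028, from -0.087), which rests on 2 measured genes. After it, 15 of the 38 were lower in sample 2. The paralogues of 7 proteins all went the same way, up or down, and these need not be the 7 that were all lower before. Loess normalization gave positive medians for the 38 genes (0.0091), the large subunit (0.018) and the other cytosolic ribosomal protein genes (0.025). With loess, 18 of the 38 were lower in sample 2, and the paralogues of 4 proteins all went the same way, up or down. Both methods by construction remove a difference that follows the signal. Scaling to the same median turned the ribosome assembly median to -0.0069. The median of all plant probe sets was -0.013 with median scaling, -0.0032 with quantile, -0.0011 with loess and -0.0049 at a limit of 50. At 1.2-fold 5 genes differed, and 0 did at 2-fold (3.25% of all plant probe sets). All 38 genes passed each limit; from either sample alone the count (38 to 38) could not be lower, since both arrays had to pass. Large minus small was 0.018 without the 4 loci known to be bright and 0.17 with 1 value per protein, both chosen after seeing the data. All 38 probe sets have plain names, so that alternative changed nothing for them. No paired analysis was possible because the samples form 1 group. Dim probe sets are the least precise, with log2 ratios that had an SD of 0.63 below a mean of 20 and 0.072 at 2000 or more.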

Other observations

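Of the 131 measured genes over both lists, 19, all from the longer list, were not above 50 on both arrays. Of these, 9 were not above the Bacillus controls and 3 were not above the TrpnX controls. Of all plant probe sets, 45.1% were above 50 on both arrays, 70% above the Bacillus controls and 85.2% above the TrpnX controls. Of the S15 genes, AT5G09510 had 227 in sample 2 and 206 in sample 1, while AT5G09490, AT5G09500, AT5G43640 and AT5G63070 were not above the Bacillus controls on both arrays. AT3G10950 of L37a had 0.20 in sample 2 and 0.40 in sample 1, and its paralogue AT3G60245 had 1723 and 2096. For P2, a partner of P1 in the stalk, AT2G27720 had 1258 and 1411, and AT5G40040 had 4.1 and 1.7. AT1G02830 of L22 had 9.9 and 10.3, while AT3G05560 had 715 and 724. AT5G40130 of L5, a transcribed pseudogene in RefSeq, had 10.1 and 10.9. These genes were singled out after their values were seen.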
